A study of Homo sapiens with 15 samples.

Results

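The secreted signals of the transforming growth factor-β (TGF-β), activin and bone morphogenetic protein (BMP) families were followed through 10 genes: the ligands TGFB1, TGFB2, TGFB3, INHBA, INHBB, BMP2 and BMP4, the extracellular antagonists FST and FSTL3, and the intracellular inhibitor SMAD7. The genes were taken by their symbols, each of which occurred once in every deposited table, from 20443 genes in all. They were measured by RNA-seq of polyadenylated RNA in A375, an established human melanoma cell line, in 15 libraries that form 5 groups of 3. In the starvation set, cells starved for 48 hours in medium with 0.1% fetal bovine serum (FBS) stand beside serum-fed cells in 10% FBS. The overexpression set holds cells with caMKL1, a constitutively active form of MKL1, or with MKL1 itself, each expressed for 48 hours, and control vector cells. MKL1, whose gene symbol is now MRTFA, is a coactivator of the transcription factor SRF that is held in the cytoplasm by monomeric actin. The serum level of the overexpression set, the promoter of the vector, and whether the 3 libraries of a group came from separate cultures are not stated in the labels, so the p-values measure the spread between these libraries, which may be technical.

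Ligands of the superfamily are secreted as dimers and signal through pairs of type I and type II serine/threonine kinase receptors. TGF-β and activin ligands pass the signal to SMAD2 and SMAD3, and BMP ligands to SMAD1, SMAD5 and SMAD9, which enter the nucleus with SMAD4. Follistatin, the product of FST, and the related FSTL3 protein bind activin outside the cell and keep it from its receptors, while SMAD7 is a product of the pathway that acts back on the type I receptors. In melanoma, TGF-β and activin are known mainly as signals from tumour cells to themselves and to the surrounding stroma and immune cells.

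The libraries held between 13937251 and 23957043 counts, and 3 counts corresponded to 0.125 to 0.215 CPM (counts scaled to library size). MRTFA itself was at 481, 463 and 465 CPM in caMKL1 cells and at 732, 771 and 709 CPM in MKL1 cells, against 26.2, 25.7 and 25.7 CPM in control vector cells. Of 8 melanocyte-lineage markers, SOX10, MITF and S100B were at or above 14.0 CPM on average in every group, whereas DCT passed a mean of 1 CPM in MKL1 and control vector cells only, and PMEL, MLANA, TYR and TYRP1 did so in no group. Summed endothelial markers were at 5.74 to 6.70 CPM in starved cells against 1.17 to 2.82 CPM in serum-fed cells, and at 7.96 to 10.7 CPM in caMKL1 and 12.0 to 13.7 CPM in MKL1 cells against 6.26 to 7.57 CPM in control vector cells. Its members went apart: KDR averaged 4.22 CPM in caMKL1 and 11.6 CPM in MKL1 cells against 5.77 CPM in control vector cells, and CDH5 2.62 and 0.233 CPM against 0.167 CPM. Summed epithelial markers, nearly all of them KRT14, were at 25.2 to 26.0 CPM in caMKL1 and 5.03 to 6.79 CPM in MKL1 cells, against 6.61 to 8.43 CPM in control vector cells. In the starvation set they were at 0.890 to 1.64 CPM in starved and 2.69 to 4.02 CPM in serum-fed cells. Summed fibroblast markers, without PDGFRA, were at 24.4 to 26.5 CPM in caMKL1 and 18.7 to 23.4 CPM in MKL1 cells against 17.7 to 18.5 CPM in control vector cells. LUM had means of 12.1, 6.61 and 3.20 CPM in that order. PDGFRB (11.6, 12.3 and 12.4 CPM), DCN (1.47, 2.03 and 1.59) and FAP (0.118, 0.405 and 0.593) did not follow it, and THY1 stayed at 0.211 CPM or less. The sums overlapped in the starvation set. There FAP averaged 2.02 CPM in starved and 0.325 CPM in serum-fed cells, and DCN 0.163 and 0.933 CPM. Summed leukocyte markers, most of them LYZ, were at 17.3 to 18.1 CPM in starved cells against 11.2 to 16.7 CPM in serum-fed cells. The part of these marker levels in the results below was not tested.

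Levels of different genes were compared in the FPKM values (fragments per kilobase of transcript, scaled to library size) that the authors deposited for each library, which allow for gene length. TGFB1, INHBA, FST and FSTL3 were the 4 highest members in every group, TGFB2 stayed at a mean of 0.315 FPKM or less, and INHBB at 0.0250 FPKM or less. FST led in 4 of the 5 groups, with means of 48.1 ± 4.36 FPKM in 0.1% FBS, 65.7 ± 1.00 in caMKL1, 95.9 ± 8.63 in MKL1 and 109 ± 2.65 in control vector cells (SD, n = 3 each). In 0.1% FBS the lead was within the spread: TGFB1 was at 45.7 ± 2.94 FPKM, and its range (42.4 to 48.0) overlapped that of FST (43.7 to 52.4). In 10% FBS the order was different: TGFB1 led with 40.3 ± 5.90 FPKM, and FST came after INHBA with 13.2 ± 1.24 FPKM, against 14.8 ± 0.407 FPKM for INHBA. INHBA stood second in caMKL1 (38.5 ± 1.02 FPKM) and in MKL1 cells (35.8 ± 1.85 FPKM), ahead of TGFB1 at 28.5 ± 1.14 and 29.5 ± 1.36 FPKM; in control vector cells it was below TGFB1, at 13.5 ± 1.08 against 37.6 ± 0.661 FPKM for TGFB1. The starvation and overexpression sets may be separate batches, so a level in one set beside a level in the other is a description only.

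**Figure D1:**
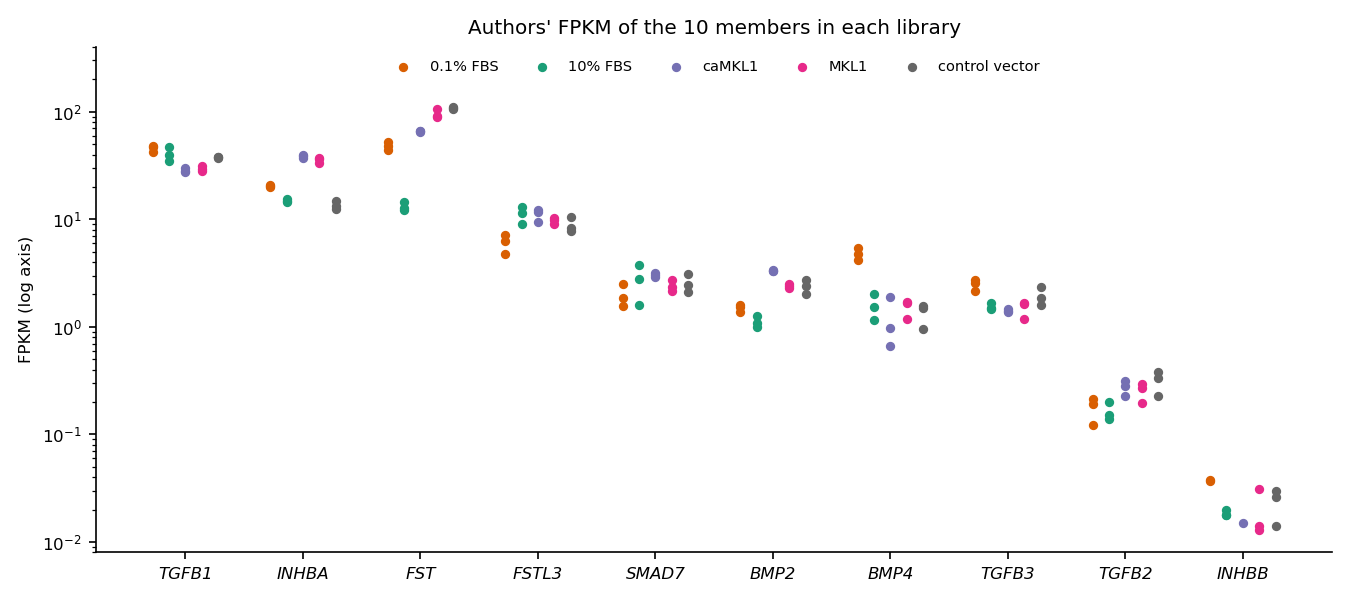
Authors' FPKM of the 10 members on a log axis, with 1 point per library and 1 colour per group; INHBB libraries listed at 0 are not drawn. FST lies lowest in 10% FBS (12.1 to 14.5 FPKM) and highest in control vector cells (106 to 111 FPKM), while INHBA is highest in caMKL1 cells (37.4 to 39.4 FPKM).

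The first comparison asked what 48 hours in 0.1% FBS did to these genes. FST and BMP4 rose most, each more than 3-fold, TGFB3, INHBA and BMP2 rose less, and FSTL3 and SMAD7 fell. With edgeR's quasi-likelihood test and Benjamini-Hochberg adjustment over all genes tested, 7 of the 9 tested members passed an adjusted p of 0.05, 5 of them higher and 2 lower in 0.1% FBS, beside 62.6% of all 13307 genes tested (31.2% higher and 31.4% lower). Passing was therefore common among all genes, and the sizes below say more than the count. When libraries were scaled by their total counts alone, 6 members were higher and 1 lower. With DESeq2, and without 10% FBS replicate 3 or 0.1% FBS replicate 1 or 2, only 5 members passed. With the replicate number as a block, 8 did. In bulk RNA such as this, fewer cells that express a gene and less RNA per cell cannot be told apart.

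Among the TGF-β ligands, TGFB1 (ENSG00000105329; GRCh38 chromosome 19, 41301587 to 41353911, minus strand), the ligand most widely made by tumour cells, was at 126, 128 and 115 CPM in starved cells and 106, 127 and 95.9 CPM in serum-fed cells. The groups overlapped, and the log2 fold change of 0.16 ± 0.0814 (SE) did not pass (adjusted p = 0.093); its interval of 2 SE either side reached from 0.00 to 0.33. Without the 10% FBS replicate 2, the highest library of its group, the log2 fold change was 0.28 (adjusted p = 0.000692). Without replicate 3, the lowest, it was 0.07 (adjusted p = 0.356). It also passed with library totals (log2 0.20, adjusted p = 0.0475). TGFB3 (ENSG00000119699; chromosome 14, 75958099 to 75982991, minus strand), which signals through the same receptors, was lower in level but clearer in response, with 8.72, 7.30 and 9.32 CPM in starved cells against 5.22, 5.11 and 5.76 CPM in serum-fed cells. All 3 starved libraries lay above all 3 serum-fed ones, a log2 fold change of 0.65 ± 0.136 (adjusted p = 0.000749). TGFB2 (ENSG00000092969; chromosome 1, 218346235 to 218444619, plus strand) held only 12 to 19 counts per library in this set, and its log2 fold change of -0.01 had an interval from -0.66 to 0.64, so a change smaller than that was not detectable at this depth. Exons of TGFB1 share 215 bases with HNRNPUL1 on the opposite strand, and those of TGFB2 and TGFB3 overlap the non-coding genes TGFB2-OT1 and TGFB3-AS1 in the GENCODE annotation; no source used here says whether counting used strand, so some reads of these genes may belong to the neighbour.

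INHBA (ENSG00000122641; chromosome 7, 41667168 to 41705834, minus strand) encodes the βA subunit whose dimer is activin A. It was at 117, 121 and 122 CPM in starved cells and 89.5, 88.2 and 92.9 CPM in serum-fed cells. The groups were well apart although the change was small, 1.33-fold (log2 0.41 ± 0.0467, adjusted p = 2.77e-06). INHBB (ENSG00000163083; chromosome 2, 120346143 to 120351808, plus strand), which encodes the βB subunit of activin B, had 0 to 2 counts in each of the 15 libraries. It was filtered out of every test as too low, and the largest sum over 3 libraries of a group was 5 counts.

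BMP4 (ENSG00000125378; chromosome 14, 53949736 to 53958761, minus strand) showed the largest rise of any ligand here. Its level was 7.42, 7.72 and 7.04 CPM in starved cells against 2.00, 2.52 and 1.66 CPM in serum-fed cells. That is 3.57-fold (log2 1.84 ± 0.169, adjusted p = 3.4e-07), the 154th highest log2 fold change of the 13307 genes. BMP2 (ENSG00000125845; chromosome 20, 6767664 to 6780280, plus strand), a close relative that uses the same receptors, moved far less: 5.64, 5.39 and 4.84 CPM in starved cells against 3.87, 4.57 and 3.58 CPM in serum-fed cells. Its groups did not overlap (log2 0.40 ± 0.154, adjusted p = 0.0344), but the call was lost with DESeq2 (adjusted p = 0.1) and when the 10% FBS replicate 1 or 3 or the 0.1% FBS replicate 1 or 2 was left out (adjusted p 0.0867 to 0.108).

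The antagonists of activin moved in opposite directions. FST (ENSG00000134363; chromosome 5, 53480409 to 53487134, plus strand) was at 105, 89.2 and 108 CPM in starved cells against 26.6, 27.9 and 32.8 CPM in serum-fed cells, a 3.46-fold rise (log2 1.79 ± 0.0846, adjusted p = 3.32e-10) and the 165th highest of all genes tested. FSTL3 (ENSG00000070404; chromosome 19, 676365 to 683399, plus strand) was at 13.8, 12.6 and 10.7 CPM in starved cells against 22.8, 25.9 and 20.5 CPM in serum-fed cells. Its log2 fold change was -0.89 ± 0.109 (adjusted p = 5.65e-06), and no starved library reached a serum-fed one.

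SMAD7 (ENSG00000101665; chromosome 18, 48919853 to 48952052, minus strand) was at 3.50, 4.73 and 5.34 CPM in starved cells and at 4.75, 8.17 and 6.21 CPM in serum-fed cells. The groups overlapped. The log2 fold change of -0.50 ± 0.203 just passed (adjusted p = 0.0424), and it no longer did with DESeq2 (adjusted p = 0.0543) or library totals (0.0556), or when any one of 4 libraries was left out: 10% FBS replicate 2 (log2 -0.29, adjusted p = 0.236), 10% FBS replicate 3 (0.0518), 0.1% FBS replicate 1 (0.179) and 0.1% FBS replicate 2 (0.0729).

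**Figure D2:**
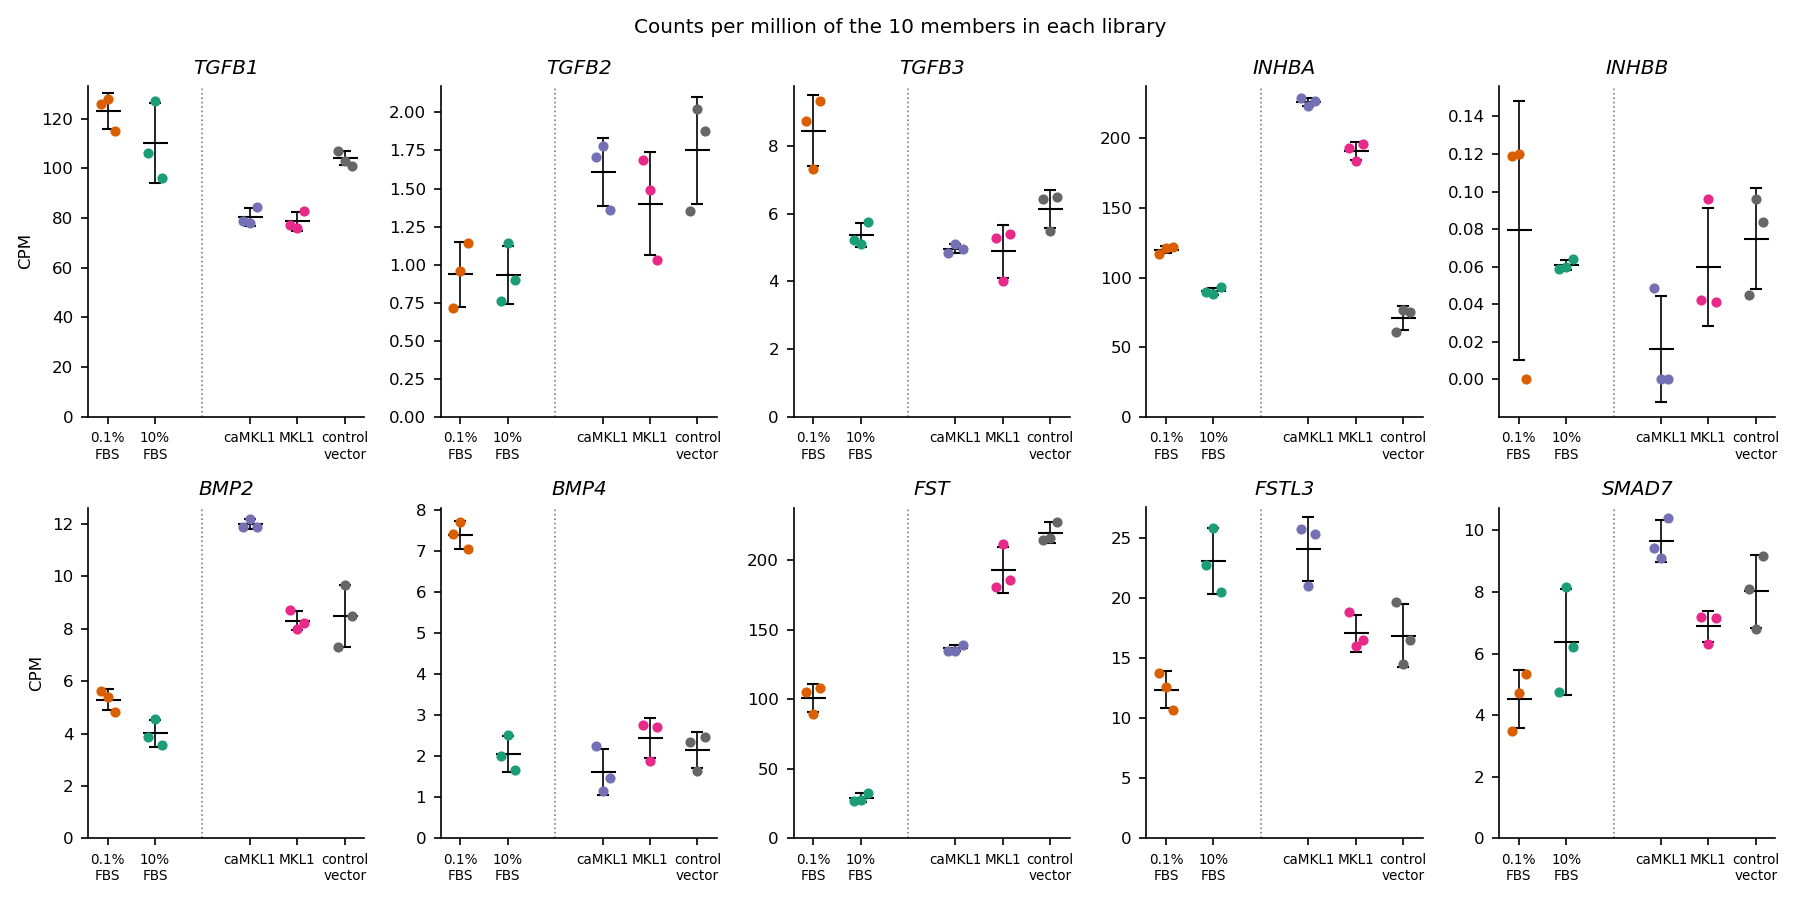
CPM of each member by library on axes of their own; points are libraries, bars the group mean ± SD of 3, and the dotted line parts the starvation set from the overexpression set, which were scaled separately. FST and BMP4 are high in 0.1% FBS, and INHBA is high in both caMKL1 and MKL1 cells.

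The rest of the pathway was described through 124 genes in 8 lists, of which 91 were tested in this comparison; 31 were higher and 34 lower, 71.4% beside 62.6% of all genes. Their median log2 fold change was 0.02, against -0.004 over all genes. Direct targets of BMP signalling were among the largest falls. ID1 and ID3, inhibitors of basic helix-loop-helix factors, were at 10.2 ± 1.57 and 4.15 ± 0.491 CPM in starved cells against 65.2 ± 8.70 and 25.7 ± 4.26 CPM in serum-fed cells (log2 -2.67 and -2.63, adjusted p = 8.64e-11 and 1.15e-09). ATOH8, another BMP-induced transcription factor, was at 0.269 ± 0.127 CPM in starved cells and 4.74 ± 0.353 CPM in serum-fed cells (log2 -4.08, adjusted p = 2.14e-08). Of the 9 tested BMP target genes 4 fell, 2 rose and 3 did not pass, with a median of -0.23. The risers were HEY1 and RUNX2 (log2 0.34 and 0.25), and both calls were lost with DESeq2, for HEY1 also without 10% FBS replicate 3 or 0.1% FBS replicate 2, and for RUNX2 also in the fit of all 15 libraries and without 10% FBS replicate 2 or 0.1% FBS replicate 1 or 2.

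The inhibitors inside the cell mostly fell. SMAD6, the BMP counterpart of SMAD7, was at 0.960 ± 0.107 CPM in starved cells and 5.05 ± 1.98 CPM in serum-fed cells (log2 -2.38, adjusted p = 9.11e-06). Of 11 genes that dampen the pathway in the cell or at the membrane, 9 fell, 1 rose and 1 did not pass, with a median of -0.33. Of all genes tested, 31.4% fell and 31.2% rose. Over the other settings 7 to 10 of the dampers passed. SKI and SKIL only just passed (log2 -0.12 and -0.18, adjusted p = 0.0475 and 0.0437). LDLRAD4 (log2 -0.86) lost its call with DESeq2 (adjusted p = 0.104). The same held without 10% FBS replicate 1 or 3, or 0.1% FBS replicate 2 or 3. PMEPA1, a TGF-β-induced membrane protein that binds SMAD2 and SMAD3, was at 17.1 ± 0.145 CPM against 55.0 ± 2.68 CPM in serum-fed cells (log2 -1.69, adjusted p = 4.14e-11), and BAMBI, a decoy receptor without a kinase, at 11.4 ± 0.437 against 20.4 ± 1.59 CPM (log2 -0.84). The only riser was PPM1A, a phosphatase of SMAD2 and SMAD3 (log2 0.32). SMAD3 itself was at 42.1 ± 3.44 CPM in starved cells against 93.6 ± 4.67 CPM in serum-fed cells (log2 -1.15, adjusted p = 1.85e-09), while SMAD2, SMAD4 and SMAD5 rose by 0.16, 0.22 and 0.38 on the log2 scale; the SMAD2 call was lost without 10% FBS replicate 1 (adjusted p = 0.0655) or 0.1% FBS replicate 3 (0.0923).

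Of 14 tested receptors and co-receptors 7 rose and 3 fell, 71.4% beside 62.6% of all genes (31.2% higher and 31.4% lower). TGFBR1, the type I receptor of TGF-β, was at 60.9 ± 2.44 CPM in starved cells against 37.7 ± 2.37 CPM in serum-fed cells (log2 0.69, adjusted p = 2.38e-07), whereas ENG, a co-receptor best known in endothelium, fell to 77.9 ± 5.33 CPM against 113 ± 11.8 CPM (log2 -0.53). Among genes of latency and activation, which store or release TGF-β in the matrix, 5 of 11 rose and 3 fell (72.7% passed). THBS1, an activator of latent TGF-β, was at 20.2 ± 1.75 CPM in starved cells and 280 ± 20.5 CPM in serum-fed cells (log2 -3.79, adjusted p = 1.61e-14), and PCSK6, a convertase of precursor proteins, at 23.6 ± 0.267 against 5.07 ± 0.161 CPM (log2 2.22, adjusted p = 1.16e-10). THBS1 shares 448 exonic bases with FSIP1 on the opposite strand. On the same strand, SMAD4 shares 967 exonic bases with AC091551.1, NBL1 552 with MINOS1-NBL1 and TGIF2 308 with TGIF2-RAB5IF. Some reads of these genes may belong to the neighbour, in every comparison.

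Targets of TGF-β and activin went both ways: 9 of 25 rose and 10 fell, with a median of 0.01. That is 76.0%, beside 62.6% of all genes (31.2% higher and 31.4% lower). CCN2, also a target of YAP and of SRF, was at 1.23 ± 0.141 CPM in starved cells against 19.3 ± 1.35 CPM in serum-fed cells (log2 -3.96, adjusted p = 1.93e-11). CDKN1A, the cell-cycle inhibitor p21, was at 466 ± 5.60 against 96.6 ± 2.96 CPM (log2 2.27, adjusted p = 1.61e-14), and fibronectin, FN1, at 105 ± 9.41 against 31.8 ± 2.08 CPM (log2 1.73, adjusted p = 8.64e-11). Of 5 tested secreted antagonists other than the members, FSTL1 (log2 -1.22), CRIM1 (-0.88) and NBL1 (-0.21) fell and TWSG1 (0.23) rose, the NBL1 call being lost with DESeq2 (adjusted p = 0.0974), with library totals (0.0575) and without 10% FBS replicate 2 (0.062) or 0.1% FBS replicate 1 (0.0741) or 2 (0.0854). Other ligands rose in 3 of 9 cases, 33.3% beside the 31.2% of all genes that were higher. BMP6 led, at 10.7 ± 0.697 CPM in starved cells against 7.25 ± 0.846 CPM in serum-fed cells (log2 0.55, adjusted p = 0.00115).

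The overexpression set asked what caMKL1 and MKL1 did to the same genes. Among the members, INHBA rose most in both caMKL1 and MKL1 cells, while the antagonist FST and the ligand TGFB1 fell in both. The FST fall in MKL1 cells was small (log2 -0.17), and its call was lost under some other settings. caMKL1 cells also had more BMP2 and FSTL3. In caMKL1 cells 6 of the 9 tested members passed, 3 higher and 3 lower, beside 63.6% of all 13558 genes (30.5% higher and 33.1% lower); with RLE size factors 4 were higher and 2 lower. In MKL1 cells 3 passed, 1 higher and 2 lower, beside 31.2% of all 13409 genes (15.8% higher and 15.4% lower); with library totals 1 was higher and 1 lower. Both comparisons use the same 3 control vector libraries, so their results are not independent of each other.

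INHBA was at 229, 223 and 227 CPM in caMKL1 cells and 193, 184 and 196 CPM in MKL1 cells, against 60.7, 76.5 and 75.3 CPM in control vector cells. Every caMKL1 and MKL1 library lay far above the highest control library. The rise was 3.19-fold in caMKL1 cells (log2 1.68 ± 0.0686, adjusted p = 4.36e-11) and 2.73-fold in MKL1 cells (log2 1.45 ± 0.0716, adjusted p = 1.82e-08). Among all genes, it was the 504th highest log2 fold change of 13558 in caMKL1 cells and the 52nd highest of 13409 in MKL1 cells, where fewer genes moved.

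TGFB1 was at 78.8, 77.8 and 84.3 CPM in caMKL1 cells and 77.0, 75.9 and 82.7 CPM in MKL1 cells, against 107, 103 and 101 CPM in control vector cells. All 6 libraries with a transgene lay below the 3 controls, with log2 fold changes of -0.37 ± 0.0479 in caMKL1 cells (adjusted p = 1.05e-05) and -0.38 ± 0.0496 in MKL1 cells (adjusted p = 0.000127). TGFB3 was at 4.83, 5.10 and 4.94 CPM in caMKL1 cells and 5.29, 4.00 and 5.40 CPM in MKL1 cells, against 6.44, 5.49 and 6.49 CPM in control vector cells. All 6 libraries with a transgene again lay below the controls in CPM, by less. In the authors' FPKM the MKL1 range (1.19 to 1.67) overlapped that of the controls (1.60 to 2.36). The TGFB3 log2 fold change was -0.31 ± 0.124 in caMKL1 cells (adjusted p = 0.0404) and -0.30 ± 0.141 in MKL1 cells (adjusted p = 0.115). The caMKL1 call was weak: 9 of 13 other settings lost it, among them leaving out control vector replicate 1 or 3 or any one caMKL1 library (adjusted p 0.065 to 0.127). TGFB2 did not pass in either, with log2 intervals of -0.58 to 0.36 in caMKL1 and -0.81 to 0.21 in MKL1 cells.

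The BMP ligands parted from each other. BMP2 was at 11.9, 12.2 and 11.9 CPM in caMKL1 cells and 8.71, 7.99 and 8.24 CPM in MKL1 cells, against 7.30, 9.68 and 8.50 CPM in control vector cells. The caMKL1 libraries lay above all others (log2 0.50 ± 0.105, adjusted p = 0.000806), whereas the MKL1 libraries lay inside the range of the controls, with a log2 fold change of -0.01 and an interval from -0.23 to 0.22. BMP4 was at 2.25, 1.15 and 1.48 CPM in caMKL1 cells and 2.75, 1.88 and 2.72 CPM in MKL1 cells, against 2.34, 1.64 and 2.47 CPM in control vector cells. These groups overlapped and neither passed. The intervals were -0.91 to 0.14 in caMKL1 and -0.24 to 0.65 in MKL1 cells, and without caMKL1 replicate 1 the log2 fold change in caMKL1 cells was -0.72 (adjusted p = 0.048), and without caMKL1 replicate 2 it was -0.19 (adjusted p = 0.577).

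FST fell to 135, 135 and 139 CPM in caMKL1 cells, against 215, 216 and 228 CPM in control vector cells (log2 -0.68 ± 0.0424, adjusted p = 4.98e-09), and MKL1 cells had 181, 212 and 186 CPM (log2 -0.17 ± 0.0558, adjusted p = 0.032). The MKL1 libraries did not overlap the controls, but the call was lost with library totals (adjusted p = 0.0628) and without control vector replicate 3 (0.0668), MKL1 replicate 1 (0.145) or MKL1 replicate 3 (0.136). FSTL3 went the other way in caMKL1 cells, at 25.8, 21.0 and 25.4 CPM, with 18.9, 16.0 and 16.5 CPM in MKL1 cells, against 19.7, 14.5 and 16.5 CPM in control vector cells. The caMKL1 rise had a log2 fold change of 0.51 ± 0.107 (adjusted p = 0.00076); the MKL1 value was 0.04, with an interval from -0.17 to 0.25. In the authors' FPKM the FSTL3 ranges of caMKL1 (9.37 to 12.1) and control vector cells (7.86 to 10.4) overlapped.

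SMAD7 was at 9.42, 9.12 and 10.4 CPM in caMKL1 cells and 7.19, 6.31 and 7.17 CPM in MKL1 cells, against 8.11, 6.79 and 9.17 CPM in control vector cells. Both groups overlapped the controls and neither passed (log2 0.26 ± 0.117 in caMKL1, adjusted p = 0.0656, and -0.20 ± 0.123 in MKL1, adjusted p = 0.224). Without control vector replicate 3 the caMKL1 value was 0.37 (adjusted p = 0.0155). Without control vector replicate 2 it was 0.15 (adjusted p = 0.265). It passed with RLE size factors (adjusted p = 0.0467).

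**Figure D3:**
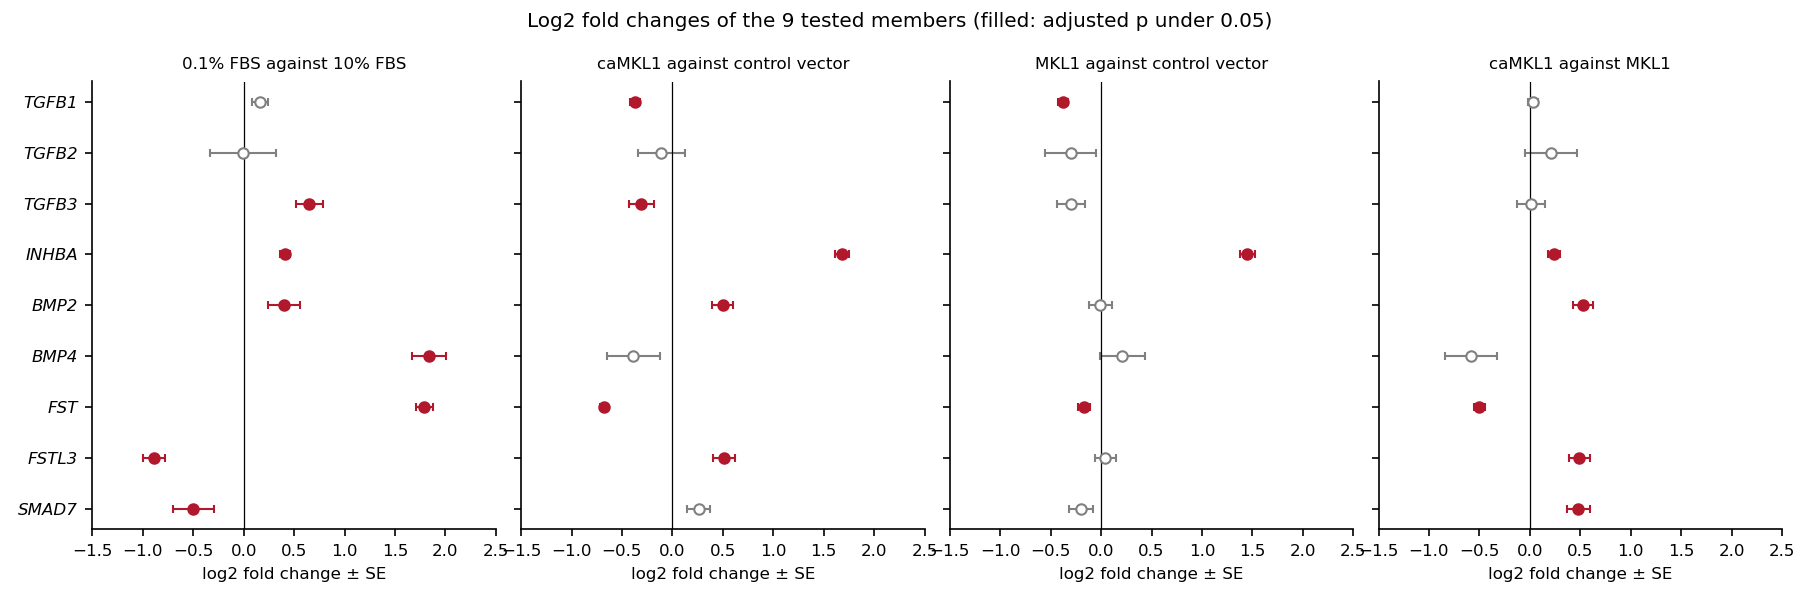
Log2 fold change ± SE of the 9 tested members in the 4 comparisons; filled red points passed an adjusted p of 0.05 and open grey ones did not. INHBA is to the right of 0 in all 4, while FST is at 1.79 in 0.1% FBS and at -0.68 in caMKL1 cells.

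The sequence before the start of 2 members is shown. INHBA rose most of the members in this set, and FSTL3 was the only member searched whose start region held the CArG box, the motif bound by SRF. RefSeq (GRCh38.p14) gave start regions for 9 of the 10 members, 14 in all, and the 250 bases before each start were searched on both strands for the CArG box, for CAGAC (a SMAD-binding motif), GTCTAGAC (a longer SMAD motif that shares its last 4 letters), GGAATG (TEAD), TGANTCA (AP-1) and TATAAA. BMP2 had no start region there and was not searched. The windows of INHBA (chr7:41703091-41703340, minus strand) and FSTL3 (chr19:676142-676391, plus strand) read as follows, 5′ to 3′, with matches in capitals.
INHBA: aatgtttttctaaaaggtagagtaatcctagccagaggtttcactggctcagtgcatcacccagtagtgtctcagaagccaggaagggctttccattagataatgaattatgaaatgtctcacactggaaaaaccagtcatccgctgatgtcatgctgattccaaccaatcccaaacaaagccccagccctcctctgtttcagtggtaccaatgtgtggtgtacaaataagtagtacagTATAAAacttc
FSTL3: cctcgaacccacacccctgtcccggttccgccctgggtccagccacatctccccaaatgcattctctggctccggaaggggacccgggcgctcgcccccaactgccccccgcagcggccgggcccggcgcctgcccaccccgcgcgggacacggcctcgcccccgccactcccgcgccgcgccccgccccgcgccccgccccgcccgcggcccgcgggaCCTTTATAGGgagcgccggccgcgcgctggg

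The FSTL3 match began 31 bases before the RefSeq start, and 1.16% of 35116 such windows of all genes held a CArG box; the TATAAA motif overlaps the same letters on the minus strand. The INHBA window held TATAAA, as did 10.7% of windows, and none of the other 5 motifs. The FST window held TGATTCA, a form of the AP-1 motif found in 6.57% of windows, 160 bases before its start. CAGAC, present in 38.0% of windows, occurred at TGFB2, TGFB3, BMP4 and SMAD7, and GGAATG, present in 11.9%, at TGFB2 alone. These matches are letters in a window only. The GENCODE gene FSTL3 begins at 676365, within the letters of the CArG match, and FST and INHBA have further starts in the GENCODE annotation.

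Around the members in caMKL1 cells, 92 of the 124 pathway genes were tested; 38 were higher and 26 lower, 69.6% beside 63.6% of all genes, with a median log2 fold change of 0.10 against -0.020 over all genes. Targets of TGF-β and activin rose in 13 of 24 cases and fell in 5, with a median of 0.32. TAGLN, a smooth-muscle actin-binding protein whose gene is also a known SRF target, was at 662 ± 33.2 CPM against 5.16 ± 0.564 CPM in control vector cells (log2 7.00 ± 0.0711, adjusted p = 1.14e-17) and CCN2 at 224 ± 8.80 against 44.0 ± 4.85 CPM (log2 2.35, adjusted p = 4.62e-13). Not all targets rose, and the matrix protein gene TGFBI, named for its induction by TGF-β, was at 62.9 ± 3.24 against 251 ± 17.7 CPM (log2 -1.99, adjusted p = 8.21e-13). TAGLN shares 446 exonic bases with PCSK7 on the opposite strand.

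Of the 15 listed other secreted antagonists of BMP ligands, only 5 were tested in caMKL1 cells. Of these 4 rose and 1 fell, with a median of 0.76, where 63.6% of all genes passed (30.5% higher and 33.1% lower). FSTL1 was at 20.3 ± 0.584 against 9.71 ± 0.470 CPM in control vector cells (log2 1.06, adjusted p = 3.57e-08), TWSG1, which binds BMP ligands with chordin, at 68.4 ± 0.830 against 33.2 ± 4.19 CPM (log2 1.04, adjusted p = 2.53e-08), and CRIM1 at 258 ± 15.3 against 153 ± 1.84 CPM (log2 0.76, adjusted p = 4.52e-09). NBL1 rose least (log2 0.16, adjusted p = 0.0321). CHRDL1 fell to 22.4 ± 2.18 against 41.2 ± 0.180 CPM (log2 -0.88, adjusted p = 7.98e-08). Latency and activation genes split 5 higher and 5 lower of 12, and, among those with a mean of at least 1 CPM, LTBP1, the binding protein that holds latent TGF-β in the matrix, rose most, at 32.5 ± 1.99 against 6.96 ± 0.492 CPM (log2 2.22, adjusted p = 1.67e-11).

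In the same cells, 3 of 9 tested BMP target genes rose and 2 fell: ID2 was at 9.84 ± 0.696 against 3.02 ± 0.306 CPM in control vector cells (log2 1.70, adjusted p = 3.27e-08), ID3 at 59.0 ± 2.10 against 35.0 ± 0.918 CPM (log2 0.75), ID1 at 124 ± 7.41 against 84.4 ± 3.38 CPM (log2 0.55), and RUNX2 and ID4 were lower (log2 -0.81 and -0.74). The share that passed was 55.6% for BMP targets and 42.9% for other SMADs, beside 63.6% of all genes (30.5% higher and 33.1% lower). Of 7 other SMADs 1 rose and 2 fell, and between 1 and 3 passed over the other settings. SMAD9 rose to 2.85 ± 0.602 CPM against 0.665 ± 0.177 CPM (log2 2.09, adjusted p = 9.86e-06), SMAD1 and SMAD5 fell by less (log2 -0.29 and -0.14, adjusted p = 0.0215 and 0.044), and SMAD3 did not pass (log2 0.04). The SMAD1 and SMAD5 calls were both lost with DESeq2 (adjusted p = 0.0999 and 0.0991), without control vector replicate 2 (0.0748 and 0.217) and without caMKL1 replicate 1 (0.109 and 0.121). That of SMAD5 was also lost with RLE size factors (0.0705), with a stricter filter on low counts (0.0519) and without control vector replicate 3 (0.0848) or caMKL1 replicate 2 (0.126) or 3 (0.0602). Dampers split 5 higher and 4 lower of 11, with LDLRAD4 at 3.72 ± 0.146 against 0.820 ± 0.400 CPM (log2 2.17) and PMEPA1 at 189 ± 2.56 against 119 ± 5.73 CPM (log2 0.66), both inhibitors of TGF-β signalling, while TGIF2 and SKI, nuclear corepressors of SMADs, were lower (log2 -0.71 and -0.36). Receptors went 5 higher and 3 lower of 14, among them BMPR1B (log2 1.20), BMPR2 (0.50) and ENG (-0.65). Of 10 tested other ligands, 2 rose and 4 fell (3 passed in all without caMKL1 replicate 3), BMP6 the most (2.71 ± 0.140 against 5.83 ± 0.746 CPM, log2 -1.10, adjusted p = 2.19e-05).

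In MKL1 cells 91 pathway genes were tested, with 14 higher and 17 lower, 34.1% beside 31.2% of all genes, and a median of -0.03 against 0.011. Targets of TGF-β and activin fell in 11 of 24 cases and rose in 5, with a median of -0.16. TGFBI was at 98.8 ± 7.18 CPM against 251 ± 17.7 CPM in control vector cells (log2 -1.32, adjusted p = 1.14e-08), FN1 at 185 ± 3.60 against 400 ± 28.1 CPM (log2 -1.09, adjusted p = 1.14e-08), and TAGLN at 8.57 ± 0.502 against 5.16 ± 0.564 CPM (log2 0.75, adjusted p = 0.00041). Among BMP targets 3 of 9 rose and the other 6 did not pass: ID3 was at 48.1 ± 1.46 against 35.0 ± 0.918 CPM (log2 0.48, adjusted p = 5.74e-05), ID1 at 105 ± 2.67 against 84.4 ± 3.38 CPM (log2 0.33, adjusted p = 0.0003), and ATOH8 (log2 0.56) lost its call when any one of 4 libraries was left out (control vector replicate 1 or 2, MKL1 replicate 1 or 3; adjusted p 0.0601 to 0.1).

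In the other lists 14.3% (receptors) to 28.6% (other SMADs) of the tested genes passed in MKL1 cells, beside 31.2% of all genes. Of 14 receptors 1 rose and 1 fell, of 7 other SMADs likewise, of 11 dampers likewise, of 10 other ligands likewise, of 11 latency and activation genes 1 rose and 2 fell, and of 5 other antagonists 1 rose. These small counts were unsteady: over the other settings the number that passed lay between 1 and 2 for receptors, 0 and 2 for SMADs, 1 and 5 for dampers, 1 and 2 for other ligands, 1 and 5 for latency and activation and 1 and 2 for antagonists. THBS1 was at 837 ± 132 CPM against 1346 ± 118 CPM in control vector cells (log2 -0.67, adjusted p = 0.000122), and AMH, the anti-Müllerian hormone ligand, at 1.82 ± 0.0775 against 3.85 ± 0.465 CPM (log2 -1.06, adjusted p = 0.000692). CRIM1 was the antagonist that rose (179 ± 18.7 against 153 ± 1.84 CPM, log2 0.25, adjusted p = 0.00781).

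**Figure D4:**
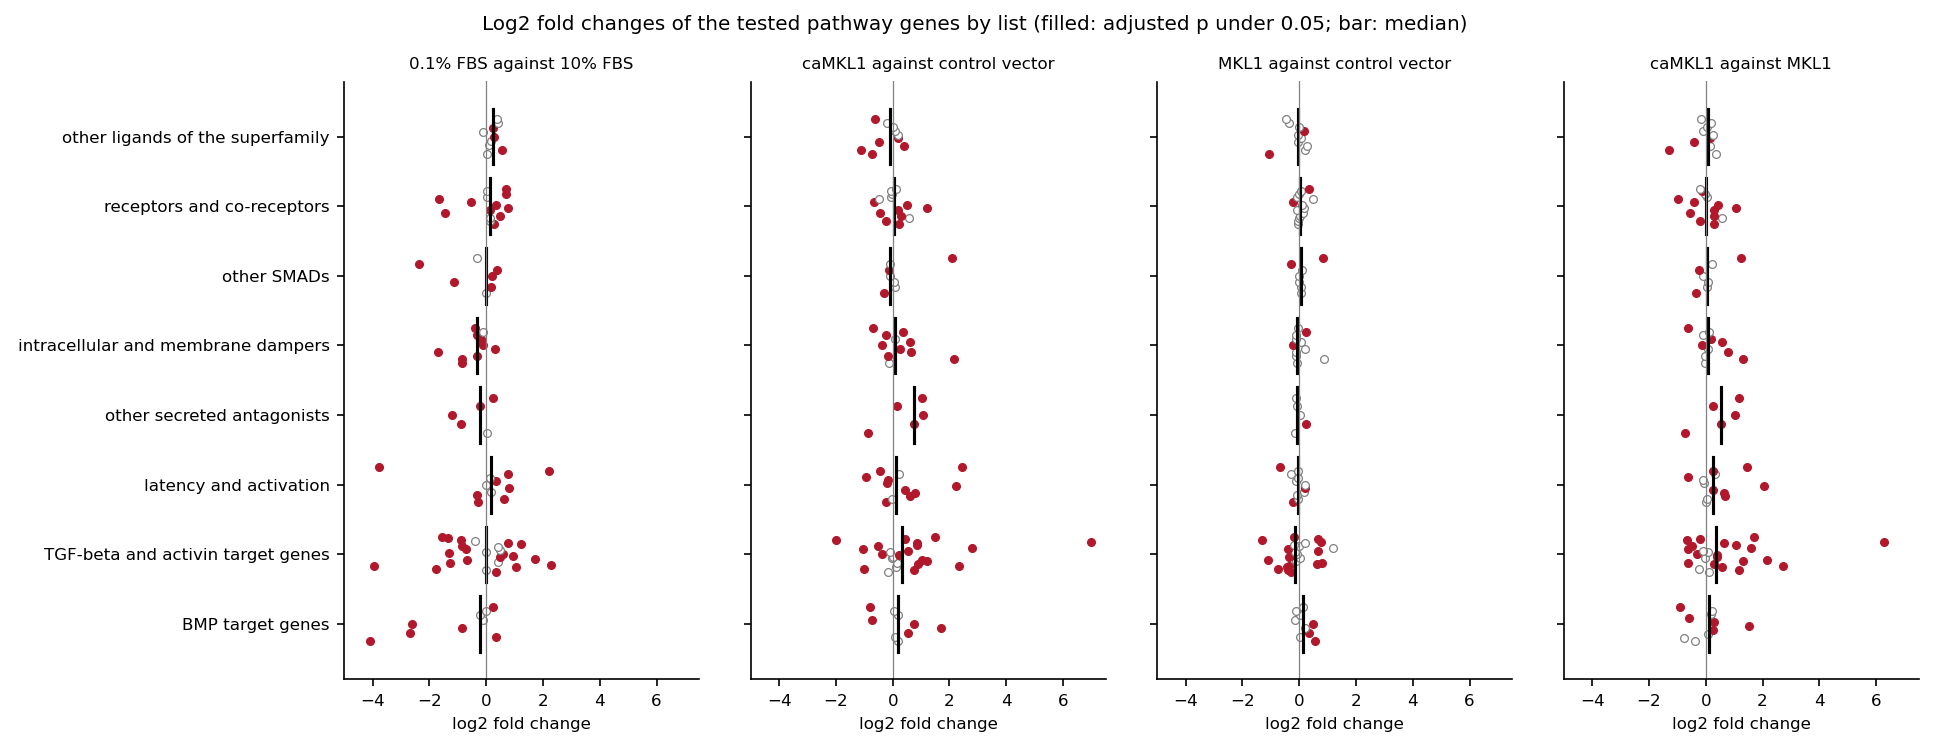
Log2 fold changes of the tested pathway genes by list in the 4 comparisons; each point is a gene, filled where the adjusted p was under 0.05, and the bar is the median of the list. In 0.1% FBS the dampers lie mostly left of 0 (median -0.33), and in caMKL1 cells TAGLN is the far right point at 7.00.

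The 2 forms were then compared directly, in a fit of the 9 overexpression libraries. MRTFA itself was at 470 ± 10.1 CPM in caMKL1 and 737 ± 31.3 CPM in MKL1 cells (log2 -0.65, adjusted p = 1.91e-10). Form and MRTFA level thus differ together, and the part of the level was not tested. Of the 9 tested members 5 passed, 4 higher and 1 lower in caMKL1 cells, beside 52.2% of all 13720 genes (25.2% higher and 27.0% lower). With library totals the members split 4 higher and 2 lower, and all genes 2750 higher and 4942 lower in place of 3463 and 3701. BMP2 (log2 0.53 ± 0.101, adjusted p = 0.000305), FSTL3 (0.49 ± 0.105, adjusted p = 0.000835) and SMAD7 (0.48 ± 0.116, adjusted p = 0.00221) were each about 1.4-fold higher in caMKL1 than in MKL1 cells, and their CPM did not overlap between the groups. INHBA was 1.18-fold higher (log2 0.24 ± 0.0602, adjusted p = 0.00269), at 226 ± 3.07 against 191 ± 6.35 CPM in MKL1 cells. FST was lower, at 137 ± 2.25 against 193 ± 16.6 CPM (log2 -0.50 ± 0.0528, adjusted p = 5.37e-07).

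TGFB1, TGFB2, TGFB3 and BMP4 did not pass between the forms. TGFB1 averaged 80.3 ± 3.54 CPM in caMKL1 and 78.6 ± 3.65 CPM in MKL1 cells, with a log2 interval from -0.07 to 0.13, so a larger difference lay outside 2 SE. BMP4 averaged 1.62 ± 0.563 CPM in caMKL1 and 2.45 ± 0.494 CPM in MKL1 cells (log2 -0.58 ± 0.257, adjusted p = 0.0704); it passed with library totals (adjusted p = 0.0437), without MKL1 replicate 2 (0.0356) and without caMKL1 replicate 1 (0.0183). Of 93 pathway genes 37 were higher and 21 lower in caMKL1 cells, 62.4% beside 52.2%, including CCN2 (log2 2.73), FN1 (2.15), LTBP1 (2.05) and ID2 (1.53) among the higher ones and BMP6 (-1.30), RUNX2 (-0.92) and CHRDL1 (-0.72) among the lower ones.

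INHBA was set against each of its antagonists as a ratio in FPKM within each library, first against FST. INHBA over FST was 0.411, 0.479 and 0.391 in 0.1% FBS against 1.21, 1.13 and 1.05 in 10% FBS, so that in FPKM INHBA went above FST only in the serum-fed libraries. In the overexpression set it was 0.597, 0.580 and 0.582 in caMKL1 cells and 0.411, 0.318 and 0.399 in MKL1 cells, against 0.117, 0.138 and 0.119 in control vector cells. The ratio was thus 2.66-fold lower in 0.1% FBS, 4.73-fold higher in caMKL1 and 3.01-fold higher in MKL1 cells than in their controls, and no groups overlapped in these comparisons or between caMKL1 and MKL1 cells (1.57-fold). Each of these 4 exact two-sided permutation tests gave p = 0.1, the smallest that 3 against 3 libraries allow. Which gene was higher depends on the allowance for gene length: in CPM INHBA was above FST in every starved and caMKL1 library too. The same held in MKL1 replicate 1 (193 against 181 CPM) and replicate 3 (196 against 186 CPM), but not in replicate 2 (184 against 212 CPM). Against FSTL3 the ratio went the other way in starvation: it was 2.80, 3.30 and 4.34 in 0.1% FBS against 1.28, 1.12 and 1.69 in 10% FBS, higher without overlap. In the overexpression set it was 3.25, 3.99 and 3.28 in caMKL1 and 3.61, 3.76 and 3.72 in MKL1 cells, against 1.21, 1.77 and 1.68 in control vector cells, and the caMKL1 and MKL1 libraries overlapped. The ratio to FSTL3 is given as a description, with no test.

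The ratio of BMP4 to BMP2 was 3.38, 3.09 and 3.07 in 0.1% FBS against 1.07, 1.60 and 1.54 in 10% FBS, 2.30-fold higher and without overlap (exact permutation p = 0.1). It was below 1 in all 9 overexpression libraries, with means of 0.356 ± 0.197 in caMKL1, 0.630 ± 0.0970 in MKL1 and 0.581 ± 0.211 in control vector cells (SD, n = 3 each), and those groups overlapped (exact permutation p = 0.2 for caMKL1 and 0.8 for MKL1, each against control vector). In all, 8 ratio comparisons were tested, and no p among them could fall below 0.1.

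**Figure D5:**
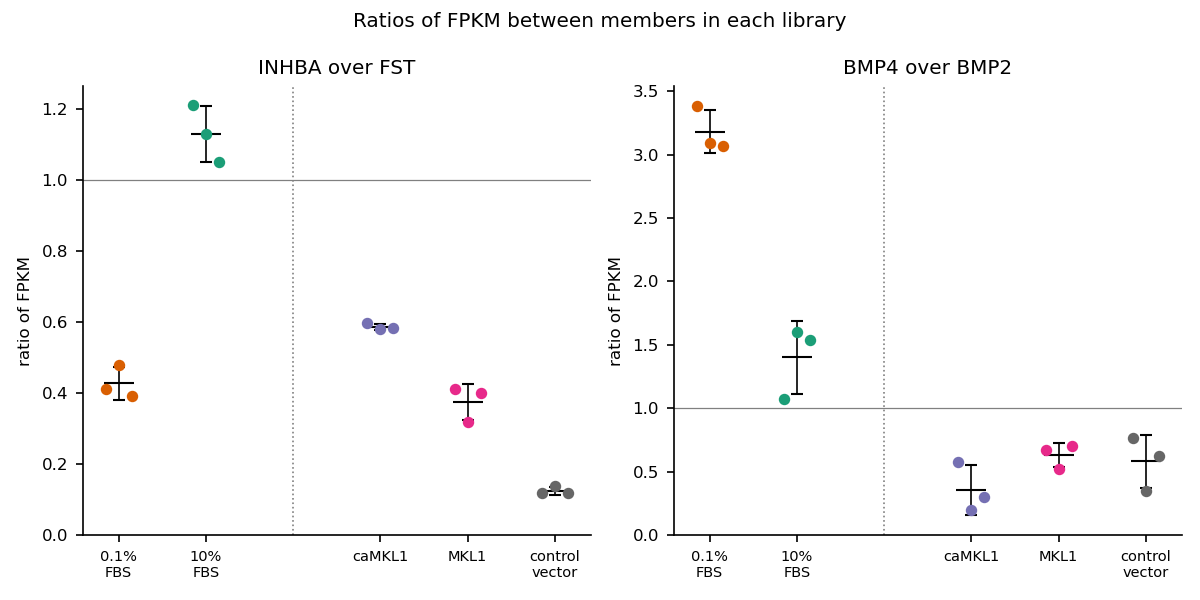
Ratios of FPKM between members in each library, INHBA over FST on the left and BMP4 over BMP2 on the right; points are libraries, bars the mean ± SD of 3, and the horizontal line marks equal levels. INHBA exceeds FST only in 10% FBS (1.05 to 1.21), and BMP4 exceeds BMP2 only in the starvation set.

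Over all 5 groups the members' levels were ordered differently from each other. INHBA ran from caMKL1 (38.5 FPKM) through MKL1 (35.8), 0.1% FBS (20.4) and 10% FBS (14.8) to control vector cells (13.5); neighbouring groups did not overlap except the last pair. FST ran from control vector (109) through MKL1 (95.9), caMKL1 (65.7) and 0.1% FBS (48.1) to 10% FBS (13.2), with no overlap between neighbours, though MKL1 and control vector cells nearly met at 106 FPKM. FSTL3 ran from 10% FBS (11.2) through caMKL1 (11.1) and MKL1 (9.69) to control vector cells (8.84), whose neighbours overlapped, and then to 0.1% FBS (6.04), which stood apart. BMP4 stood apart in 0.1% FBS alone (4.81), the other 4 means lying between 1.18 and 1.58 with overlap. For TGFB2, TGFB3 and SMAD7 every neighbouring pair overlapped, and for TGFB1 every pair but control vector (37.6) and MKL1 (29.5). BMP2 was highest in caMKL1 (3.31), overlapped between MKL1 (2.41) and control vector (2.38), and was lower in 0.1% FBS (1.51) and 10% FBS (1.12).

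The genes whose pattern was most like a member's were found among 12405 genes by Pearson's r of log2 CPM, centred within each set, over the 15 libraries; libraries of a group share their condition, so r describes the pattern and carries no test. INHBA was most like MOSPD2 (r = 0.984), GOLPH3L (0.979) and SATB1 (0.971). FST was most like RNMT (0.983), E2F7 (0.983) and ITIH5 (0.982), and FSTL3 like CD151 (0.962), MYO1C (0.960) and DBN1 (0.957). BMP4 was closest to SREBF2 (0.959), GPR153 (0.947) and FDFT1 (0.946), and BMP2 to EPHX4 (0.943), MICAL2 (0.927) and AGO4 (0.923). TGFB1 was closest to CHST12 (0.959), EMC10 (0.940) and SGSH (0.936), TGFB3 to ZNF235 (0.924), NRP2 (0.921) and SOD3 (0.912), and SMAD7 had the loosest matches, with PMM1 at 0.859, VEGFB at 0.843 and DCTN2 at 0.828. No member was among the 3 most like another member.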

How the data were processed

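The analysis began from the counts that the authors deposited in 3 tables of paired groups. These are whole numbers, named counts in the file headers, but the submitters' processing notes name RSEM, so the authors may have rounded estimated counts. The notes also list Bowtie2 2.2.8, HISAT2 2.2.4, StringTie 1.3.1, DESeq2 and GRCh38, without roles. The authors also deposited FPKM per library, used here for levels between genes and for ratios. Their deposited log2 fold changes and p-values were not used for any result. The control vector counts were identical in both overexpression tables (0 genes differed) and entered once.

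Tests used edgeR 4.0.16 under R 4.3.3 (TMM, filterByExpr, glmQLFit and glmQLFTest, two-sided, Benjamini-Hochberg adjustment over all genes tested, threshold 0.05), each control comparison on its own 6 libraries and caMKL1 against MKL1 in all 9 overexpression libraries. SEs were derived from the log2 fold change and the F statistic. CPM use TMM factors within each set. The procedure was tested on simulated data with known fold changes. DESeq2 1.42.0, other scalings and filters, a replicate block and leaving out each library were alternatives. Deviations of same-numbered libraries correlated weakly, at -0.127 to 0.098, and no pairing by replicate number was assumed. For caMKL1 against control vector they correlated at 0.017 to 0.098, against -0.071 to 0.028 for other numbers. There 4 of 6 libraries matched best with their own number. Likeness used log2(CPM + 0.5).

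The members, pathway lists, markers and tests were chosen with earlier results of these data known. Named pathway genes are, per list and comparison, the up to 3 with the largest rise and the up to 3 with the largest fall among genes with an adjusted p under 0.05 and a mean of at least 1 CPM; such a gene may also be shown in the other comparisons. A result chosen this way may be left unreported here. Gene positions come from GENCODE v29. The number of libraries limits precision, and the counting floor of 3 counts covers counting error only.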

Additional observations from a re-analysis of the deposited data

How the results depend on the processing

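Under 13 alternatives per comparison, the numbers of members and of pathway genes that passed stayed within 1.5 times the reported ones, as did all counts over all genes except one: 2595 genes passed for MKL1 without MKL1 replicate 3, in a range of 2595 to 4094 over the libraries left out, against 4182. TGFB3, INHBA, BMP4, FST and FSTL3 in 0.1% FBS, INHBA and TGFB1 in MKL1, INHBA, TGFB1, BMP2, FST and FSTL3 in caMKL1 cells, and INHBA, BMP2, FST, FSTL3 and SMAD7 between caMKL1 and MKL1 kept direction and call under all 13. Directions that turned were all of values that did not pass: TGFB2 in 0.1% FBS (0.02 with library totals and -0.16 to 0.16 over the libraries left out), BMP2 in MKL1 (0.02 with library totals, 0.08 without control vector replicate 2 and 0.02 without MKL1 replicate 2), FSTL3 in MKL1 (-0.07 without control vector replicate 2, -0.04 without MKL1 replicate 1), and between caMKL1 and MKL1 TGFB1 (-0.04 with library totals) and TGFB3 (-0.06 with library totals and -0.11 to 0.09 over the libraries left out). The cause was not tested. The replicate block, for numbers not known to pair the libraries, gave 8668, 4569, 8710 and 7396 genes for the starvation, MKL1, caMKL1 and caMKL1 against MKL1 comparisons. TGFB1 in 0.1% FBS (adjusted p = 0.0066 by edgeR), SMAD7 in caMKL1 (0.0361) and BMP4 between the forms (0.0306) then passed, and TGFB3 in caMKL1 (0.0546) did not. With a library left out its group has 2, and the shared fit estimates the spread. The counts per list, recomputed as alternatives added after seeing the data, moved by over 1.5 times mainly for the MKL1 lists with 3 or fewer called genes. Depth limits TGFB2, BMP4 and INHBB, which had 1 to 129 counts or none in a library.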
